A study of Mus musculus with 16 samples.

Results

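The 33 ceramide and barrier lipid genes described here are the genes whose products make, modify, move or break down the ceramides and very long chain fatty acids of the epidermal barrier. They were chosen by symbol from this biology, with earlier results of these data already known. All 33 were found among the 50600 gene identifiers of the count table. They passed the minimum of 10 counts over all libraries, as did 22155 genes in all. Gene expression was measured by RNA-seq in footpad epidermal cells of 16 female C57/B6J mice, 4 in each of 4 groups and 1 library per mouse. From 5 wk of age the mice received for 3 wk either a purified diet poor in ligands of the aryl hydrocarbon receptor (AhR-poor diet, SYNTH in the labels) or that diet supplemented with indole-3-carbinol, a source of AhR ligands, at 200 ppm (I3C diet). Both diets share the AIN-93M base, and no group was fed normal chow. The footpad received 50 μl of PBS (vehicle) or 50 μg of the protease allergen papain in PBS, and cells were taken 6 hr later, after dispase had parted epidermis from dermis and dead cells had been removed. Mice on the same diet shared a cage, so that diet and cage cannot be told apart.

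Ceramides are the main sphingolipid of the outermost skin layer, where they form water-tight lamellae with cholesterol and free fatty acids. Serine palmitoyltransferase starts their synthesis, ceramide synthases attach a fatty acid whose length each synthase prefers, and elongases provide the very long chains typical of skin. Keratinocytes then build acylceramides, in which an additional linoleate is attached, and lipoxygenases oxidize this linoleate so that the lipid can be bound to the cornified envelope. Inherited loss of several of these genes causes ichthyosis, a disorder of scaling skin.

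Library totals ranged from 22500821 to 51844375 counts, and the floor of 3 counts equalled 0.0569 to 0.130 CPM (each count over its library size, after TMM scaling), a limit that covers counting error only. Markers of the labelled tissue were high in every group, with summed basal keratinocyte markers from 21070 to 37273 CPM and summed suprabasal markers from 26346 to 68417 CPM. In a principal component analysis, library T106 of the papain group on the I3C diet and library T112 of the papain group on the AhR-poor diet lay apart from the others of their groups. Dermal fibroblast markers, 12 genes all with counts in every group, were summed to between 2.40 and 13.9 CPM on the I3C diet and between 111.7 and 764 CPM on the AhR-poor diet. Of these 12 markers, 11 were higher on the AhR-poor diet in each treatment, and so were all 8 endothelial markers. Monocyte and macrophage markers were higher on that diet for 4 of 9 genes with vehicle and 8 with papain, and melanocyte markers for 2 and 5 of 6. With papain, 4 of 6 skeletal muscle, 4 of 8 neutrophil, 2 of 7 Langerhans cell and 1 of 8 T cell markers tested were higher. Of 8 adipocyte markers, 5 could be tested, of which 1 was higher with vehicle and 3 with papain. Their sum was 0.128 to 0.870 CPM on the I3C diet, where Cfd had no count with either treatment and Adipoq, Plin1 and Fabp4 none with papain, and 1.76 to 5.69 CPM on the AhR-poor diet. The part of these other cells in the results below was not tested, and fewer cells of a type and less RNA per cell cannot be told apart in bulk samples.

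Levels of different members were compared per kilobase of exonic length. This length merges the exons of all annotated transcripts of a gene, and which transcripts were present was not tested. Degs1, the desaturase that turns dihydroceramide into ceramide, had the highest level, with 193 CPM per kilobase averaged over the 4 groups. Elovl4, the elongase of the ultra long chains of acylceramides, followed with 99.9, and Acer1, the alkaline ceramidase of the differentiated epidermis, with 88.4 CPM per kilobase. Elovl1 reached 65.6 and Hsd17b12, the ketoreductase of the elongation cycle, 62.2 CPM per kilobase. At the other end stood Degs2, the hydroxylase of phytoceramide synthesis, with 0 to 9 counts per library and 0.0319 CPM per kilobase, so that no difference in Degs2 was detectable at this depth. The lipases Lipn and Lipk were also low, at 0.332 and 0.578 CPM per kilobase.

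A member is said to have passed at a Benjamini-Hochberg adjusted p below 0.01 over all genes in edgeR's quasi-likelihood test, and to be differentially expressed when its log2 fold change was also above 1 or below -1, the study's thresholds. Of the 33 members, 16 passed in at least 1 of the 4 comparisons of groups and 17 in none, beside 37.1% of all genes tested that passed in at least 1. Between diets, 5 members passed with 1 treatment or both, beside 11.3% of all genes, and after papain 12 members passed on 1 diet or both, beside 32.4%. Cers2 was the 1 member in both sets. In 9 members some exonic bases are shared with genes on the opposite strand, and whether the counting used strand is not given in the sources used here, so that reads of these members and their partners may not be told apart. The shared length was 1219 bases for Lipm, 1100 for Cers4, 950 for Abhd5, 644 for Pnpla1, 343 for Acer1, 278 for Degs2, 219 for Cers2, 53 for Elovl1 and 10 for Elovl3.

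**Figure D1:**
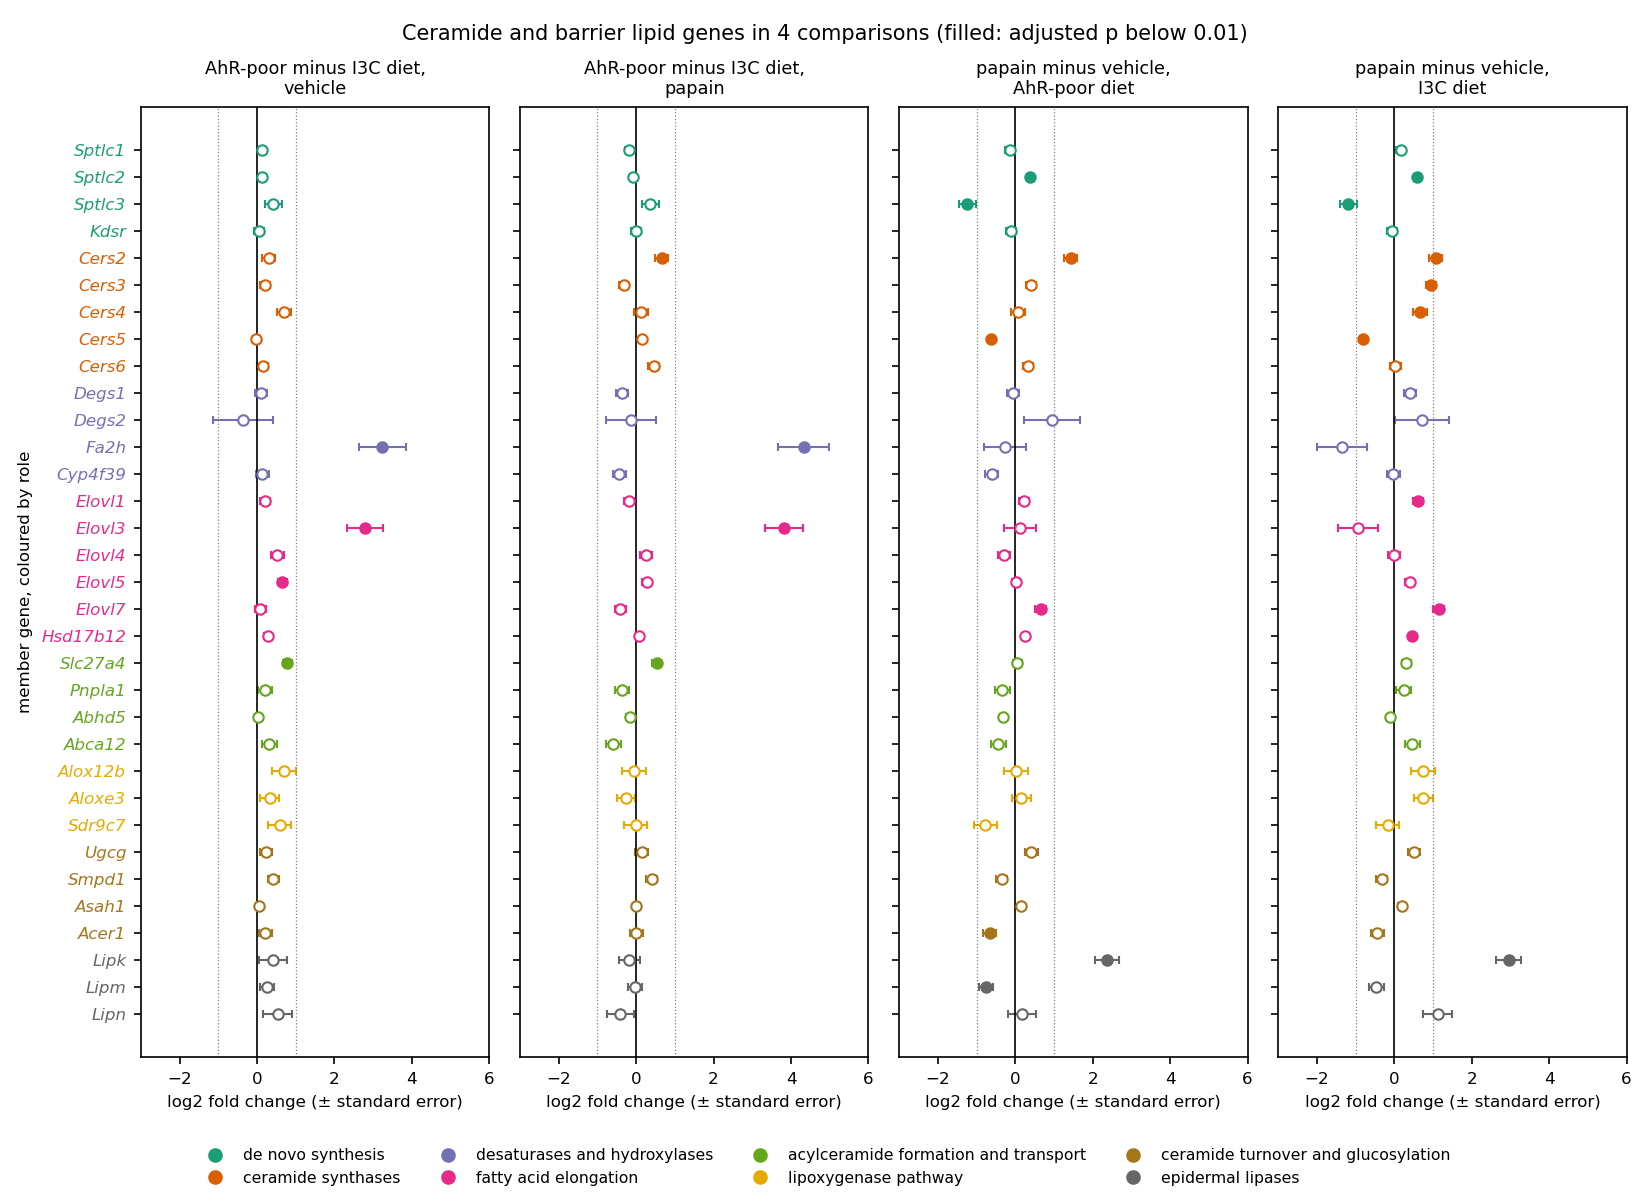
Log2 fold change (x axis, bars show the standard error) of each of the 33 members (rows, coloured by role) in the 4 comparisons, fitted on 4 libraries per group. Filled points passed at adjusted p below 0.01, and dotted lines mark log2 fold changes of -1 and 1. Fa2h and Elovl3 stand far to the right in both comparisons of diets, with log2 fold changes from 2.78 to 4.33, and Lipk in both comparisons of papain with vehicle, at 2.37 and 2.96.

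The first question was which members differed between the diets. With vehicle, Fa2h, Elovl3, Slc27a4 and Elovl5 were higher on the AhR-poor diet, and with papain Fa2h, Elovl3, Slc27a4 and Cers2 were. These are 4 of 33 members with each treatment and none that was lower, beside 1.72% of all genes tested in the higher and 0% in the lower direction with vehicle, and 8.13% and 3.07% with papain. Counted as differentially expressed, they were Fa2h and Elovl3 with each treatment, or 2 of 33 members, beside 1.59% and 7.15% of all genes. With vehicle, both of these calls were lost without T100, T109 or T110, and that of Fa2h also under other settings given below. The unadjusted p was below 0.05 in either direction for 9 members with vehicle and 12 with papain, beside 12.5% and 32% of all genes, and DESeq2 also called 0 members lower in each. The median log2 fold change of the members was 0.26 with vehicle, where 31 of 33 estimates were above 0, and -0.02 with papain, where 14 were, while the medians of all genes were -0.01 and 0.01. The 33 estimates come from the same libraries and are not independent. Between replicate libraries the median over the members had an SD of 0.142 on the log2 scale. The 7 suprabasal keratinocyte markers had medians of 0.19 with vehicle, where 7 of 7 estimates were above 0, and -0.21 with papain, where 2 were, and none passed. The 9 granular keratinocyte markers, of the layer that makes barrier lipids, had medians of 0.82 with vehicle (8 of 9 above 0) and 0.92 with papain (6 of 9), with 5 and 4 at an unadjusted p below 0.05 and none that passed in edgeR. The 7 basal markers had medians of -0.23 and -0.39, and with papain 1 was higher and 2 were lower. Without T100, 1 member was higher with vehicle, and without T108, T109 or T110 2 members were.

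Fa2h makes the 2-hydroxylated fatty acids found in epidermal and sebaceous lipids (ENSMUSG00000033579, chr8:111345135-111393824, minus strand, GRCm38). With vehicle it reached 3.24, 9.20, 4.76 and 18.6 CPM in the 4 libraries on the I3C diet and 107.1, 114.7, 50.1 and 65.1 CPM in those on the AhR-poor diet. With papain the values were 8.31, 0.770, 2.71 and 1.89 CPM on the I3C diet and 83.9, 65.7, 55.1 and 76.4 CPM on the AhR-poor diet. Every library on the AhR-poor diet was thus above every library on the I3C diet, with the highest I3C value at 18.6 and the lowest AhR-poor value at 50.1 CPM. The log2 fold change was 3.24 ± 0.61 (SE, n = 4 per group) with vehicle, which is 9.44-fold, at adjusted p = 0.00904 in edgeR. With papain it was 4.33 ± 0.66, or 20.1-fold, at adjusted p = 0.000433 in edgeR. The exact two-sided permutation test of 4 against 4 libraries gave p = 0.0286 for each, the smallest p it allows. The call with vehicle lay close to the threshold and was lost in 13 of the 16 fits that each left out 1 library, all but those without T106, T111 or T113, with adjusted p up to 0.0417 in edgeR, while the log2 fold change ranged from 2.96 to 3.86, the latter without T111. The call with papain was kept in all 16 of these fits, with log2 fold changes from 4.03 to 5.29, the latter without T106. The vehicle call was also lost with RLE factors or library size only in place of TMM. It was lost too with every gene of at least 1 count and with only the 8 libraries compared.

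Elovl3 elongates saturated and monounsaturated fatty acids and is known from sebaceous glands and brown fat (ENSMUSG00000038754, chr19:46131897-46135694, plus strand, GRCm38). With vehicle it reached 0.574, 2.06, 1.17 and 3.24 CPM on the I3C diet and 13.9, 17.3, 7.84 and 9.36 CPM on the AhR-poor diet. After papain it reached 1.71, 0.385, 0.970 and 0.547 CPM on the I3C diet and 17.0, 10.5, 11.4 and 13.4 CPM on the AhR-poor diet. The diets did not overlap with either treatment, and the lowest of these libraries held 12 counts of the gene. Its log2 fold change was 2.78 ± 0.46 with vehicle (6.86-fold, adjusted p = 0.00299 in edgeR) and 3.83 ± 0.50 with papain (14.2-fold, adjusted p = 8.03e-05 in edgeR). The exact permutation test gave p = 0.0286 for each. The call with vehicle was lost without T100, T109 or T110, with adjusted p up to 0.018 in edgeR.

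Slc27a4 encodes the fatty acid transporter FATP4, which activates very long chain fatty acids and whose loss causes ichthyosis prematurity syndrome. It was expressed in all groups and differed less. With vehicle it reached 60.7, 84.4, 85.4 and 96.3 CPM on the I3C diet and 137, 165, 119 and 144 CPM on the AhR-poor diet, without overlap. With papain the I3C libraries lay at 101.4, 97.5, 105.2 and 100.96 CPM and the AhR-poor libraries at 139, 156, 147 and 144 CPM, again without overlap. Slc27a4 differed by a log2 fold change of 0.79 ± 0.11 with vehicle (1.72-fold, adjusted p = 0.0004 in edgeR) and 0.53 ± 0.11 with papain (1.45-fold, adjusted p = 0.00202 in edgeR). Both calls were kept in all 16 fits that left out 1 library.

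Elovl5 elongates polyunsaturated fatty acids. With vehicle its libraries reached 17.9, 20.4, 20.4 and 18.6 CPM on the I3C diet and 33.1, 29.9, 26.2 and 32.2 CPM on the AhR-poor diet. These groups did not overlap, and the log2 fold change was 0.65 ± 0.12 (1.57-fold, adjusted p = 0.00244 in edgeR, lost without T100 or T108). With papain the I3C libraries spread from 20.1 to 30.7 CPM and the AhR-poor libraries from 25.9 to 34.6 CPM, which overlap, and the log2 fold change was 0.27 ± 0.12 (adjusted p = 0.109 in edgeR). The difference between both treatments was itself not past the threshold (interaction -0.38 ± 0.16, adjusted p = 0.325 in edgeR). Cers4, with 95.9 ± 20.1 CPM on the I3C and 156 ± 23.3 CPM on the AhR-poor diet in vehicle libraries (SD, n = 4), had a log2 fold change of 0.70 ± 0.18 and missed the threshold at an adjusted p of 0.0458 in edgeR, though its groups did not overlap.

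**Figure D2:**
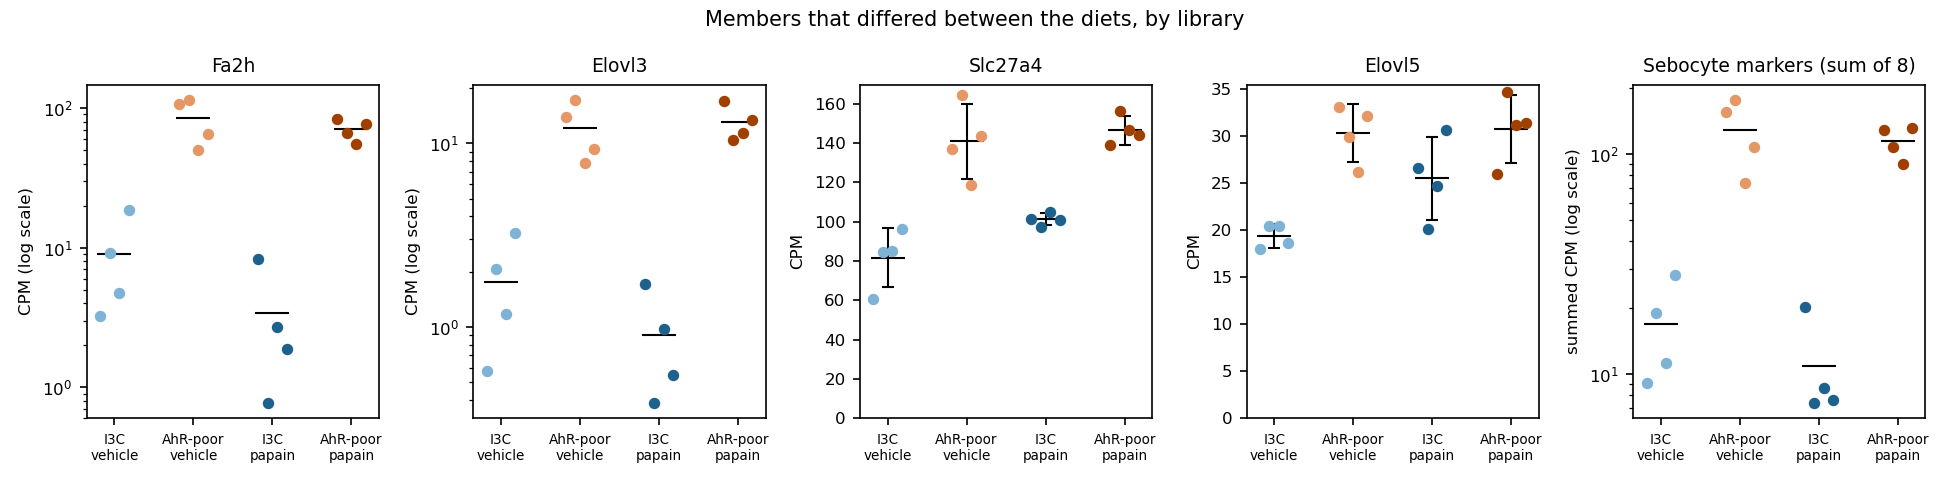
CPM of Fa2h, Elovl3, Slc27a4 and Elovl5, and the summed CPM of 8 sebocyte markers, in each library (points) of the 4 groups; horizontal bars are group means and, on the linear axes, whiskers show the SD (n = 4). The y axes of Fa2h, Elovl3 and the sebocyte markers are logarithmic. On these 3 axes all AhR-poor libraries lie above all I3C libraries.

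Sebocyte markers, a list of 8 genes (Mc5r, Awat1, Awat2, Far2, Dgat2l6, Cidea, Mogat1 and Soat1), moved with the diet as well. Of these, 6 of 8 were higher on the AhR-poor diet in each treatment. Their median log2 fold change was 2.53 for vehicle and 2.69 for papain, and none of the 8 was without counts in a group. Their summed level ran from 9.05 to 28.2 CPM on the I3C diet and from 73.8 to 176 CPM on the AhR-poor diet among vehicle libraries, and from 7.34 to 20.1 and from 90.1 to 132 CPM among papain libraries. After these values had been seen, the sum was set against Fa2h, Elovl3, Slc27a4 and Elovl5 within each diet, in 8 relations over 8 libraries each (vehicle and papain together), on the log2 scale. For Fa2h, Pearson's r was 0.957 on the I3C diet and 0.979 on the AhR-poor diet, with Spearman's rho of 0.976 and 0.952 (exact permutation p = 4.96e-05 and 0.000198 for r, 0.000397 and 0.00114 for rho; adjusted over the 8 relations, 0.000397 and 0.000794 for r). For Elovl3, r was 0.961 and 0.854 and rho 0.952 and 0.833 (exact permutation p = 0.000298 and 0.00766 for r, 0.00114 and 0.0154 for rho; adjusted, 0.000794 and 0.0153 for r).

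Without the 2 libraries farthest from the median sum, r stayed at 0.918 and 0.976 for Fa2h and at 0.936 for Elovl3 on the I3C diet, and was 0.626 for Elovl3 on the AhR-poor diet. For Slc27a4 r was 0.0922 on the I3C and 0.595 on the AhR-poor diet, with rho of -0.214 and 0.262 (exact permutation p = 0.866 and 0.114 for r, 0.619 and 0.536 for rho). Without the 2 farthest libraries r for Slc27a4 was -0.257 on the I3C diet and turned from 0.595 to -0.646 on the AhR-poor diet, so that the latter rested on T101 and T102. For Elovl5 r was -0.246 and 0.256, with rho of -0.167 and 0.0952 (exact permutation p = 0.544 and 0.535 for r, 0.703 and 0.84 for rho), and r without those 2 libraries was -0.351 and -0.108. Thus Fa2h varied with the sebocyte markers among mice of each diet, and Elovl3 did so among those on the I3C diet. On the AhR-poor diet the relation of Elovl3 was weaker and leaned in part on T101 and T102. No other marker list was set against these genes, so the relation is not shown to be particular to sebocytes. Among Langerhans cell markers on the I3C diet, Cd207 and H2-Ab1 were, like Fa2h, highest in T106, T109 and T111, while Epcam and Cd74 were not. On the AhR-poor diet Cd207 was highest in T103 and Fa2h in T101. The part of sebaceous gland cells in the difference of Fa2h and Elovl3 between diets was not tested.

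**Figure D3:**
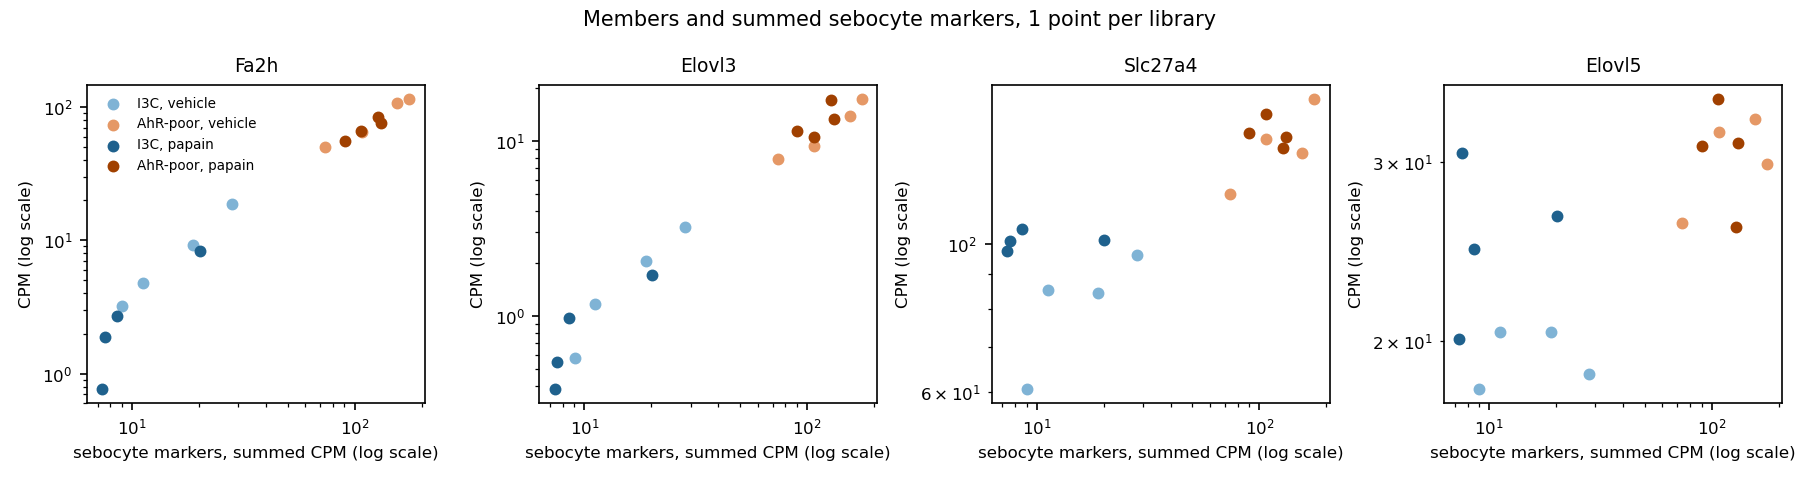
CPM of Fa2h, Elovl3, Slc27a4 and Elovl5 (y axes, log scale) against the summed CPM of 8 sebocyte markers (x axes, log scale), with 1 point per library coloured by group. Fa2h and Elovl3 rise along the x axis within each diet (r of 0.957 and 0.961 on the I3C diet), which Slc27a4 and Elovl5 do not on the I3C diet (r of 0.0922 and -0.246). On the AhR-poor diet r for Elovl3 is 0.854, and 0.626 without T101 and T102.

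AhR binds DNA at a core of letters GCGTG, so the promoters of members were read for it, on both strands, together with TGANTCA, the site of AP-1 factors. No match of one overlapped a match of the other. The RefSeq promoter table (GRCm38.p6, 250 bases before to 50 after a start site) held 28 of the 33 members with 30 promoters, and Fa2h, Elovl3, Aloxe3, Asah1 and Lipk were not matched. GCGTG was found in 13 of these 30 promoters, and in 32.4% of all 32851 promoters of this length. TGANTCA was found in 1, that of Lipn, and in 7.81% of all. The promoters of Slc27a4 and Elovl5 are printed because these members with a promoter entry passed between the diets with vehicle, and that of Cers5 because it held the most matches among the members, 4 in all. Sequences run 5′ to 3′ on the gene's strand, and capitals mark GCGTG or, for a match on the other strand, CACGC.
Slc27a4, chr2:29802384-29802683, plus strand: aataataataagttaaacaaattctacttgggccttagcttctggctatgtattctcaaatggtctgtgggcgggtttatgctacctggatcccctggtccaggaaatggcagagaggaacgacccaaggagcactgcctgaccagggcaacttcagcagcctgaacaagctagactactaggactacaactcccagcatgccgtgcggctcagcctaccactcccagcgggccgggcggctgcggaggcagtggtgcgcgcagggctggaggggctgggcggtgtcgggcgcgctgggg
Elovl5, chr9:77917115-77917414, plus strand: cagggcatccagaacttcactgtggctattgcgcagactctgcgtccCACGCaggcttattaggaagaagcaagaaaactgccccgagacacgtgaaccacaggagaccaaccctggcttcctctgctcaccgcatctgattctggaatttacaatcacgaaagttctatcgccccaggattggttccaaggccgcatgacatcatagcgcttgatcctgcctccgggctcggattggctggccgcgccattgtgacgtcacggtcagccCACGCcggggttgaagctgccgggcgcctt
Cers5, chr15:99772466-99772765, minus strand: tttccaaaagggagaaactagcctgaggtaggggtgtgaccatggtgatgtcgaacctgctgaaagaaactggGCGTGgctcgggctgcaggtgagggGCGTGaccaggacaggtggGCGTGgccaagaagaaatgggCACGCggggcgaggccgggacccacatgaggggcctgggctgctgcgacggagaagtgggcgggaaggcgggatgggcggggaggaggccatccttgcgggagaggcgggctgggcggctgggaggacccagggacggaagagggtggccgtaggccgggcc
The Slc27a4 window held no match. The Elovl5 window held 2, at positions -203 to -199 and 21 to 25 from the start site. Cers5, with its 4 matches between -177 and -108, had log2 fold changes between diets of -0.03 ± 0.07 with vehicle and 0.14 ± 0.07 with papain (adjusted p = 0.941 and 0.165 in edgeR). The matches describe letters in these windows and not binding.

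The second question was how the members responded to papain on each diet. On the AhR-poor diet 4 of 33 members rose and 4 fell, beside 12.4% and 10.1% of all genes tested, and without T101, T102, T103 or T104 2 members fell. On the I3C diet 8 rose and 2 fell, beside 12.7% and 12.9% of all genes. Counted as differentially expressed, papain gave 2 members higher and 1 lower for the AhR-poor diet (6.04% and 2.42% of all genes), and 3 higher and 1 lower for the I3C diet (3.69% and 5.29%). The median log2 fold change of the members was 0.02 on the AhR-poor and 0.31 on the I3C diet, and of all genes -0.00 and -0.04. For the suprabasal keratinocyte markers it was -0.44 and 0.06, with 1 of 7 that fell on the AhR-poor and none that passed on the I3C diet. The granular markers had medians of -0.76 and -0.89, and the basal markers of -0.18 and -0.11. Of the 7 basal markers, 1 fell on the AhR-poor and 2 on the I3C diet. Krt15 fell on both, by -1.38 and -1.93 (adjusted p = 1.13e-05 and 2.37e-07 in edgeR). On both diets Sptlc2, Cers2, Elovl7 and Lipk rose and Sptlc3 and Cers5 fell. These 6 comparisons per diet share no library between the diets. They do share the fit over all 16 libraries and its estimate of spread, so their adjusted p-values are not independent. All 12 calls were kept in each fit that left out 1 library.

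Serine palmitoyltransferase, the first enzyme of the pathway, is built from a common subunit, Sptlc1, and either Sptlc2 or Sptlc3, which prefer acyl chains of different length. Sptlc3 (ENSMUSG00000039092, chr2:139493913-139637674, plus strand, GRCm38) fell. Its vehicle libraries reached 72.1, 86.2, 98.3 and 68.3 CPM on the I3C diet and 81.5, 109.2, 105.3 and 140 CPM on the AhR-poor diet. After papain they reached 52.1, 27.6, 28.3 and 34.9 CPM on the I3C diet and 33.5, 51.7, 54.5 and 44.9 CPM on the AhR-poor diet. On each diet every papain library was below every vehicle library, and the highest of the papain libraries on the I3C diet was T106. The log2 fold change was -1.24 ± 0.22 on the AhR-poor diet, 2.36-fold lower, and -1.18 ± 0.22 on the I3C diet, 2.27-fold lower (adjusted p = 0.000486 and 0.000608 in edgeR, exact permutation p = 0.0286 for each).

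Sptlc2 moved the other way. It rose from 48.4 ± 4.80 to 63.2 ± 1.31 CPM on the AhR-poor diet and from 44.1 ± 1.19 to 66.5 ± 4.80 CPM on the I3C diet (SD, n = 4), with log2 fold changes of 0.39 ± 0.07 and 0.59 ± 0.07 (adjusted p = 0.000378 and 3.18e-06 in edgeR). Per kilobase, Sptlc3 stood above Sptlc2 in each group, at 38.3 against 5.96 with vehicle and 16.2 against 7.79 CPM per kilobase with papain for the AhR-poor diet, and at 28.6 against 5.43 and 12.6 against 8.19 on the I3C diet. The order after papain rests on the merged exonic lengths, 2845 bases for Sptlc3 and 8115 for Sptlc2. In CPM, Sptlc3 was above Sptlc2 in every vehicle library and below it in every papain library. Sptlc1 and Kdsr, the reductase of the next step, passed in no comparison, with log2 fold changes from -0.18 to 0.16 and from -0.12 to 0.05.

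The ceramide synthases changed in opposite directions. Cers2 prefers very long acyl chains of the kind found in many tissues, Cers3 makes the ultra long chain ceramides of skin and testis, Cers4 prefers long to very long chains, and Cers5 and Cers6 make ceramides with palmitate. Cers2 (ENSMUSG00000015714, chr3:95314791-95323599, plus strand, GRCm38) reached 12.3, 8.77, 9.63 and 11.7 CPM with vehicle and 19.0, 27.0, 23.0 and 20.2 CPM with papain on the I3C diet. On the AhR-poor diet it reached 15.8, 13.7, 12.3 and 10.5 CPM with vehicle and 43.9, 38.5, 33.7 and 25.2 CPM with papain. Papain and vehicle libraries did not overlap on either diet. Papain raised Cers2 by 1.44 ± 0.17 on the log2 scale under the AhR-poor diet (2.71-fold, adjusted p = 5.55e-06 in edgeR) and 1.07 ± 0.17 on the I3C diet (2.10-fold, adjusted p = 7.3e-05 in edgeR), with exact permutation p = 0.0286 for each.

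After papain, Cers2 also differed between the diets, with AhR-poor above I3C by 0.67 ± 0.16 (adjusted p = 0.00814 in edgeR), although T112 at 25.2 CPM lay within the range of the I3C diet (exact permutation p = 0.0571). That call was lost in 8 of the 16 fits that left out 1 library (T101, T102, T104, T105, T106, T107, T114 or T115), with adjusted p up to 0.0421 in edgeR, and also with every gene of at least 1 count and with only the 8 libraries of the comparison. Cers2 is among the members that share exonic bases with the opposite strand.

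Cers5 fell on both diets, and its replicates lay close together. With vehicle it reached 87.5, 96.6, 91.6 and 97.9 CPM on the I3C diet and 84.6, 90.5, 86.9 and 103.9 CPM on the AhR-poor diet, and with papain 54.4, 53.9, 51.4 and 54.1 CPM and 56.1, 59.6, 58.2 and 62.1 CPM. The Cers5 log2 fold change was -0.63 ± 0.07 on the AhR-poor diet, 1.55-fold lower, and -0.81 ± 0.07 on the I3C diet, 1.75-fold lower (adjusted p = 1.69e-06 and 5.43e-08 in edgeR). These were the lowest adjusted p-values of any member on each diet.

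Cers3 reached 29.1, 32.6, 39.3 and 31.8 CPM with vehicle and 54.4, 76.1, 62.5 and 63.7 CPM with papain on the I3C diet, without overlap. Its log2 fold change was 0.95 ± 0.13 (adjusted p = 1.31e-05 in edgeR). On the AhR-poor diet, where its mean went from 38.3 ± 6.56 to 51.2 ± 6.68 CPM (SD, n = 4), the log2 fold change was 0.42 ± 0.13 and the adjusted p 0.0174 in edgeR. Cers4 had log2 fold changes of 0.65 ± 0.18 on the I3C diet (adjusted p = 0.00893 in edgeR) and 0.08 ± 0.18 on the AhR-poor diet (adjusted p = 0.778 in edgeR), and it shares exonic bases with Gm36956 and Vmn2r-ps89 on the opposite strand. The Cers4 call was lost in 10 of the 16 fits without 1 library (T100, T103, T104, T105, T106, T108, T109, T110, T114 or T115), with adjusted p up to 0.0345 in edgeR, and also with library size only, with every gene of at least 1 count and with only the 8 libraries of the comparison. Cers6 passed on neither diet (0.33 ± 0.14 and 0.02 ± 0.14).

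**Figure D4:**
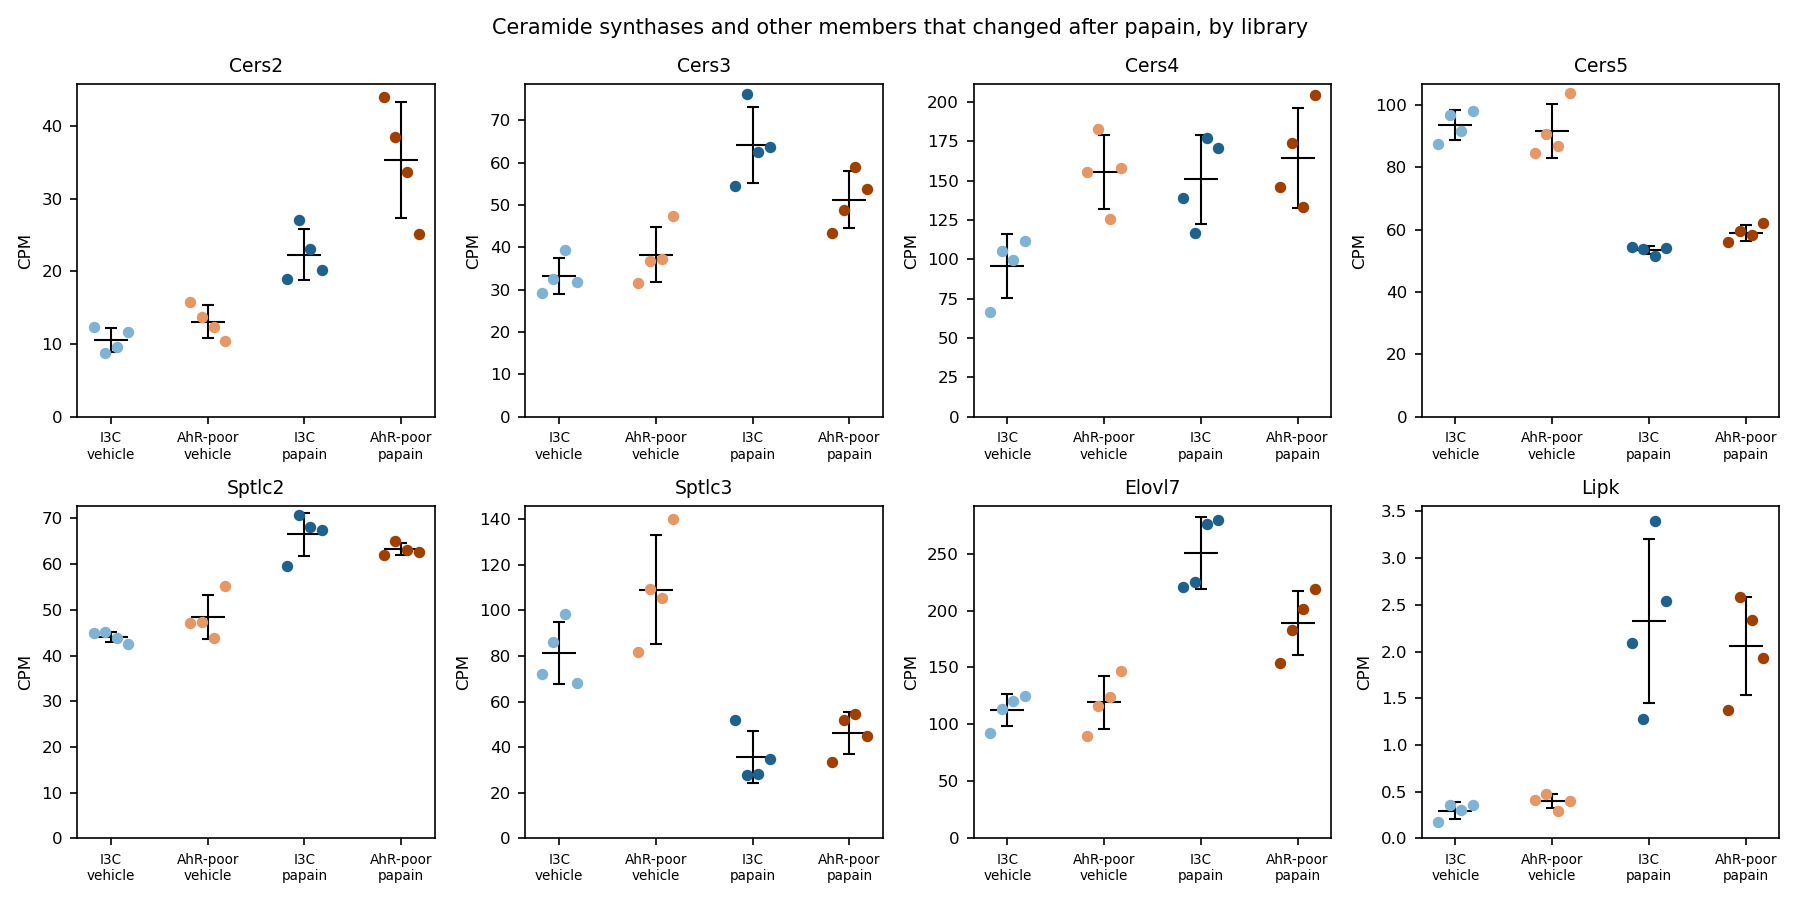
CPM in each library (points) of 4 ceramide synthases and of Sptlc2, Sptlc3, Elovl7 and Lipk in the 4 groups, with group means (horizontal bars) and SD (whiskers, n = 4) on axes that start at 0. On both diets the papain libraries of Cers2, Sptlc2, Elovl7 and Lipk lie above, and those of Cers5 and Sptlc3 below, all vehicle libraries of the same diet.

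Set side by side per kilobase, the 5 synthases had another makeup after papain. Cers5 held 52.9 ± 1.83% of their summed level with vehicle and 27.1 ± 1.98% with papain on the I3C diet, and 45.5 ± 1.57% and 28.2 ± 0.593% on the AhR-poor diet (SD, n = 4). Cers3 held 20.4 ± 2.01% and 35.2 ± 3.48% on the I3C diet, and 20.6 ± 2.31% and 26.6 ± 3.36% on the AhR-poor diet. Cers2 went from 5.82 ± 1.17% to 10.8 ± 1.34% and from 6.33 ± 1.42% to 16.3 ± 4.04%. The ranges of the Cers5, Cers3 and Cers2 shares did not overlap between vehicle and papain on either diet. Per kilobase, the largest share lay with Cers5 in both vehicle groups and with Cers3 in the papain group on the I3C diet. In the papain group on the AhR-poor diet, Cers5 and Cers3 lay close to each other. This order rests on the merged exonic lengths, 12264 bases for Cers4, 3542 for Cers5 and 3256 for Cers3. In CPM without length, Cers4 stood above Cers5 and Cers3 in every library but T108, where Cers4 had 66.6 and Cers5 87.5 CPM. Shares of a sum are not independent, since a fall of Cers5 raises the others.

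**Figure D5:**
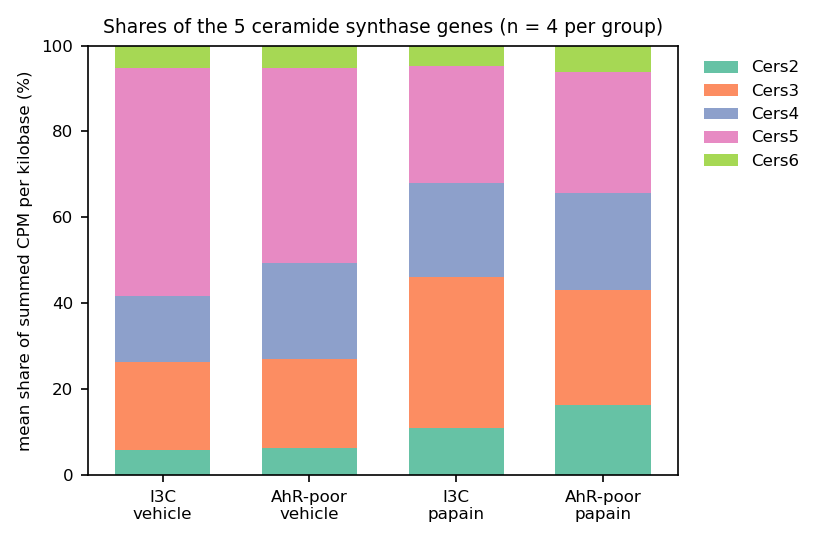
Mean share of each ceramide synthase gene in their summed CPM per kilobase (y axis, percent) in the 4 groups (bars, n = 4 libraries each). Cers5 takes 52.9% and 45.5% in the vehicle groups and 27.1% and 28.2% in the papain groups.

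Among the elongation genes, Elovl7, which elongates long chain acyl groups, responded most. Elovl7 (ENSMUSG00000021696, chr13:108214404-108285683, plus strand, GRCm38) reached 92.9, 113.6, 120 and 125 CPM with vehicle and 221, 225, 276 and 279 CPM with papain on the I3C diet. On the AhR-poor diet it reached 90.2, 116, 124 and 147 CPM with vehicle and 154, 183, 201 and 219 CPM with papain. The groups did not overlap, though 147 CPM with vehicle lay close to 154 CPM with papain. The log2 fold change was 0.66 ± 0.14 on the AhR-poor diet (1.58-fold, adjusted p = 0.00136 in edgeR) and 1.15 ± 0.14 on the I3C diet (2.22-fold, adjusted p = 5.35e-06 in edgeR), with exact permutation p = 0.0286 for each.

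Elovl1, which makes saturated very long chains, and Hsd17b12 passed on the I3C diet, by 0.62 ± 0.13 and 0.46 ± 0.09 (adjusted p = 0.00084 and 0.000248 in edgeR), and had 0.23 ± 0.13 and 0.26 ± 0.08 on the AhR-poor diet (adjusted p = 0.193 and 0.0234 in edgeR). Elovl4 passed on neither diet, with -0.29 ± 0.16 on the AhR-poor and -0.02 ± 0.16 on the I3C diet. Neither did Elovl3, at 0.11 ± 0.41 and -0.94 ± 0.51. Of the 5 elongases per kilobase, Elovl4 held the largest share in each group but went from 49.8 ± 2.90% to 36.3 ± 3.97% on the I3C diet and from 54.2 ± 3.45% to 43.3 ± 1.87% on the AhR-poor diet, while Elovl7 went from 16.3 ± 1.06% to 26.5 ± 3.08% and from 12.9 ± 0.941% to 19.98 ± 0.826% (SD, n = 4).

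Lipk, Lipm and Lipn are lipases of the differentiated epidermis. Lipk (ENSMUSG00000024771, chr19:34008290-34047835, plus strand, GRCm38) had the largest log2 fold change of any member after papain, from a low level. It reached 0.172, 0.357, 0.299 and 0.360 CPM with vehicle and 2.09, 1.28, 3.40 and 2.54 CPM with papain on the I3C diet. On the AhR-poor diet it reached 0.409, 0.477, 0.297 and 0.402 CPM with vehicle and 1.38, 2.58, 2.34 and 1.93 CPM with papain. Vehicle libraries held 6 to 18 counts of Lipk and papain libraries 40 to 136, without overlap. For Lipk the log2 fold change was 2.37 ± 0.31 on the AhR-poor diet (5.16-fold, adjusted p = 1.12e-05 in edgeR) and 2.96 ± 0.32 on the I3C diet (7.76-fold, adjusted p = 8.24e-07 in edgeR), with exact permutation p = 0.0286 for each.

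Lipm, at a higher level, fell on the AhR-poor diet from 111.4 ± 24.4 to 66.02 ± 13.3 CPM (SD, n = 4), by -0.76 ± 0.19 (adjusted p = 0.00557 in edgeR), and had -0.46 ± 0.19 on the I3C diet (adjusted p = 0.0679 in edgeR). Acer1 fell on the AhR-poor diet from 275 ± 39.6 to 174 ± 36.5 CPM, by -0.66 ± 0.17 (adjusted p = 0.00617 in edgeR), and had -0.44 ± 0.17 on the I3C diet (adjusted p = 0.052 in edgeR). The Lipm call was lost without T101, T102, T103, T104, T105 or T107, and the Acer1 call without T101, T102, T103, T104, T107, T109, T111 or T114, with adjusted p up to 0.026 and 0.0267 in edgeR. Both calls were also lost with every gene of at least 1 count, and that of Lipm with only the 8 libraries compared. Both Lipm and Acer1 share exonic bases with genes on the opposite strand. Lipn had a log2 fold change of 1.12 ± 0.37 on the I3C diet and missed the threshold (adjusted p = 0.0233 in edgeR, 8 to 43 counts per library over all groups).

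Members of acylceramide formation, transport and oxidation did not pass after papain on either diet. Pnpla1, the transacylase that makes acylceramide, had -0.33 ± 0.19 on the AhR-poor and 0.24 ± 0.19 on the I3C diet, and Abhd5, its cofactor, -0.31 ± 0.09 and -0.10 ± 0.09. Abca12, the lamellar body lipid transporter, had -0.44 ± 0.19 and 0.46 ± 0.19, and Slc27a4 0.06 ± 0.11 and 0.31 ± 0.11. The lipoxygenases Alox12b and Aloxe3 had 0.01 ± 0.31 and 0.16 ± 0.24 on the AhR-poor diet and 0.74 ± 0.31 and 0.75 ± 0.24 on the I3C diet, and Sdr9c7, the dehydrogenase of the next oxidation step, -0.77 ± 0.30 and -0.18 ± 0.30. Cyp4f39, which hydroxylates the end of ultra long chains, had -0.60 ± 0.17 and -0.02 ± 0.17, and Degs1 -0.05 ± 0.16 and 0.40 ± 0.16. Fa2h also passed on neither diet. Its mean went from 84.3 ± 31.5 to 70.3 ± 12.6 CPM on the AhR-poor diet (SD, n = 4). On the I3C diet it went from 8.95 ± 6.90 to 3.42 ± 3.35 CPM, with a log2 fold change of -1.35, the lowest of any member there. Of the turnover genes, Ugcg, the glucosylceramide synthase, had 0.42 ± 0.16 and 0.51 ± 0.16, Smpd1, the acid sphingomyelinase, -0.35 ± 0.14 and -0.33 ± 0.14, and Asah1, the acid ceramidase, 0.14 ± 0.08 and 0.19 ± 0.08. The lowest adjusted p in this paragraph was 0.0106 in edgeR, for Cyp4f39 on the AhR-poor diet.

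Markers of other cells moved with papain too. Neutrophil markers (8 genes, of which all 8 rose on the AhR-poor and 4 on the I3C diet) were summed to between 9.41 and 11.6 CPM with vehicle and between 88.0 and 576 CPM with papain under the AhR-poor diet, and to between 1.64 and 4.74 and between 50.9 and 92.5 CPM on the I3C diet, where Ly6g had no count with either treatment and Mmp8 none with vehicle. Dermal fibroblast markers rose on the AhR-poor diet, 11 of 12 with a median log2 fold change of 1.98, and their sum went from between 111.7 and 200 CPM to between 299 and 764 CPM. None of the 12 rose on the I3C diet, where 1 fell and the sums were 10.5 to 13.9 and 2.40 to 12.4 CPM. Monocyte and macrophage markers (9 genes, all with counts in every group) rose for 6 genes under the AhR-poor diet, with sums of 50.7 to 61.1 and 84.8 to 266 CPM, and for 2 genes under the I3C diet, with sums of 18.8 to 28.1 and 11.5 to 35.4 CPM. Granular keratinocyte markers (9 genes, all with counts in every group) were summed to between 970 and 1350 CPM with vehicle and between 542 and 882 CPM with papain under the AhR-poor diet, and to between 947 and 1387 and between 660 and 798 CPM on the I3C diet. Among these 9, Tgm3 fell on both diets and Tgm1 rose on the I3C diet. Of 7 eccrine sweat gland markers tested, 1 fell on the AhR-poor diet and 2 on the I3C diet, with Slc12a2 on both. Of 8 endothelial markers, 1 rose on the AhR-poor diet, where all 8 estimates were above 0. None of them rose on the I3C diet, where 2 estimates were above 0. Fabp4, 1 of 5 adipocyte markers tested, rose on the AhR-poor diet. Epcam of the Langerhans cell and Thy1 of the T cell markers rose on both. The part of these cells and layers in the changes of the members was not tested. Without T106 and T112 together, a choice made after seeing the data, the members that rose and fell numbered 4 and 4 on the AhR-poor and 8 and 3 on the I3C diet, and 4 members were higher and 0 lower between the diets with each treatment.

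The third question was whether the response to papain differed between the diets. No member passed the interaction of diet and treatment in edgeR or in DESeq2, beside 0.0181% of all genes that did with a higher value and 0% with a lower one, and 8 members had an unadjusted p below 0.05, beside 13.5% of all genes in either direction and 6.07% with an estimate below 0. These 8 were Cers3, Cers4, Cyp4f39, Elovl1, Elovl5, Elovl7, Pnpla1 and Abca12, each with an estimate below 0, that is, with a papain change that was more positive under the I3C diet. The lowest adjusted p was 0.186 in edgeR, for Abca12. That gene reached 94.0, 102.1, 131 and 84.6 CPM with vehicle and 134, 169, 121 and 142 CPM with papain on the I3C diet, and 91.2, 122, 114.3 and 185 CPM and 77.2, 96.9, 113.004 and 90.1 CPM on the AhR-poor diet. Its interaction was -0.90 ± 0.27. The median interaction of the members was -0.28, with 6 of 33 estimates above 0, beside 0.03 for all genes. These 33 estimates, too, come from the same libraries and are not independent. The suprabasal keratinocyte markers had estimates in the same direction, with a median interaction of -0.39 and 0 of 7 estimates above 0, though none passed and 1 had an unadjusted p below 0.05 in edgeR. The granular markers had a median interaction of -0.04 with 4 of 9 estimates above 0, and the basal markers -0.09 with 3 of 7, again with none that passed and 1 in each list at an unadjusted p below 0.05. The part of these layers in the members' shift was not tested. The calls on 1 diet alone (Cers3, Cers4, Elovl1 and Hsd17b12 on the I3C diet, Acer1 and Lipm on the AhR-poor diet) are therefore not shown to differ between the diets.

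Of 57 other genes of sphingolipid and barrier fatty acid metabolism, 54 could be tested. On the AhR-poor diet 4 of 54 were higher and 0 lower than on the I3C diet among vehicle libraries (6 and 0 in DESeq2), beside 1.72% and 0% of all genes tested, and 16 had an unadjusted p below 0.05 in either direction, beside 12.5%. Among papain libraries 9 were higher and 2 lower (11 and 2 in DESeq2), beside 8.13% and 3.07%. After papain 8 rose and 9 fell on the AhR-poor diet (9 and 10 in DESeq2), beside 12.4% and 10.1%, and 11 rose and 10 fell on the I3C diet (14 and 13 in DESeq2), beside 12.7% and 12.9%. The interaction was passed by 0 of 54 in edgeR, where 14 had an unadjusted p below 0.05 beside 13.5% of all genes, and by 1, Sgms2, in DESeq2. Elovl6, which elongates palmitate, was higher on the AhR-poor diet by 2.05 ± 0.22 with vehicle and 1.95 ± 0.22 with papain (adjusted p = 0.00011 and 1.72e-05 in edgeR). With vehicle, Scd1, the stearoyl-CoA desaturase, was also higher by 1.51 ± 0.20 and Sgpp2, a sphingosine phosphate phosphatase, by 1.45 ± 0.28.

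With papain, the sphingomyelin synthase Sgms2 was higher on the AhR-poor diet by 2.15 ± 0.38 and B4galt6, which makes lactosylceramide, by 2.26 ± 0.39, while the ceramide kinase Cerk was lower by -0.46 ± 0.10 and the ceramide transfer protein Col4a3bp by -0.31 ± 0.07. Papain raised the acyl-CoA dehydratases Hacd1 (1.69 ± 0.18 and 1.34 ± 0.19) and Hacd4 (1.52 ± 0.29 and 1.93 ± 0.33) on the AhR-poor and the I3C diet. It raised the fatty acid binding protein Fabp5 on both as well (1.23 ± 0.16 and 1.88 ± 0.17), and Sgms2 on the AhR-poor diet (1.90 ± 0.37). It lowered the acyl-CoA thioesterase Acot2 on both (-0.94 ± 0.19 and -1.53 ± 0.19), Scd2 (-1.06 ± 0.24) and the neutral ceramidase Asah2 (-0.91 ± 0.19) on the AhR-poor diet, and Scd1 (-0.76 ± 0.20) and Acsl4 (-0.76 ± 0.12), an acyl-CoA synthetase, on the I3C diet.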

How the data were processed

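RNA was sequenced from footpad epidermal cells of 16 mice, 4 in each combination of diet and treatment, and according to the study these were biological replicates. The library kit was TruSeq Stranded. The authors aligned reads with STAR to mm10 and deposited raw counts per gene, whole numbers without normalization. The submitters' processing notes also name FastQC and DESeq2. The counting tool, its annotation and its strand setting are not given in the sources used here. Sequencing used 3 units, and the labels do not name the unit of each library, so no batch was fitted.

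Of 50600 identifiers, 50376 were matched to symbols and exonic lengths of GENCODE M21 (GRCm38, the build behind mm10) and 224 were not. The 22155 genes whose counts summed to 10 or more were fitted in edgeR 4.0.16 under R 4.3.3 with TMM factors and a mean for each group over all 16 libraries, and 5 comparisons were taken with the robust quasi-likelihood F test, adjusted by Benjamini-Hochberg over all genes. Values with ± beside a log2 fold change are standard errors. Exact two-sided permutation tests compared log2(CPM + 0.5) of 4 with 4 libraries, with p of at least 0.0286. The tests were checked on simulated data. Full values are given for members differentially expressed in any comparison (adjusted p below 0.01, log2 fold change beyond 1), and for further members that other results turn on, chosen after their values were seen. Of the other pathway genes, the 3 largest changes in each direction with at least 1 CPM on average are named. The members, lists and rules were chosen with earlier results of these data known. The alternatives tried were DESeq2 1.42.0, RLE factors or library size alone in place of TMM, 3 other filters on counts (filterByExpr, 10 in each library, 1 in total), a fit of just the 8 libraries in a comparison, a threshold of 0.05 for the adjusted p, each library left out in turn, and T106 and T112 left out together. Library totals of 22500821 to 51844375 counts set the precision of low genes. Marker lists covered basal, suprabasal and granular keratinocytes, sebocytes, eccrine sweat glands, fibroblasts, adipocytes, endothelial cells, neutrophils, monocytes and macrophages, Langerhans cells, T cells, melanocytes and skeletal muscle.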

Additional observations from a re-analysis of the deposited data

Results flagged for a closer look

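In each group of 4 libraries, the CPM of each member was searched for a library far from the others, by the gap to its nearest neighbour relative to the whole range. Chance gives about 1 such library in 20 groups, and 4 were found in 132 groups. Cers5 in T114 of the papain group on the I3C diet was at 51.4 CPM, below the other libraries at 53.9 to 54.4 CPM. Degs1 in T108 of the vehicle group on the I3C diet was at 364 CPM, below the others at 475 to 494 CPM. Elovl1 in T113 of the papain group on the I3C diet was at 258 CPM, above the others at 202 to 208 CPM. Asah1 in T100 of the vehicle group on the AhR-poor diet was at 37.4 CPM, above the others at 32.9 to 33 CPM. The calls of Cers5 and Elovl1 after papain on the I3C diet were kept without these libraries.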

How the results depend on the processing

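No paired analysis was possible because no replicate code occurs in more than 1 group. No log2 fold change of a called member reversed. The medians of the members near 0 took either sign, from -0.07 to 0.08 between the diets with papain and from -0.03 to 0.08 after papain on the AhR-poor diet, within the spread between replicates (0.142), while the others kept their sign. Between the diets with vehicle, 1 member in place of 2 was differentially expressed with RLE factors, with library size only, with every gene of at least 1 count and with only the 8 libraries compared, since Fa2h then missed the threshold. At an adjusted p below 0.05, 2 members were lower between the diets with papain, beside 8.36% of all genes, and 13 rose after papain on the I3C diet, beside 16.9%. After papain on the AhR-poor diet, 1 member in place of 2 was differentially expressed and higher with at least 10 counts in every library, where 30 members were tested, and 2 in place of 4 fell with every gene of at least 1 count. In edgeR, Cers2 between the diets with papain, Cers4 after papain on the I3C diet and Lipm after papain on the AhR-poor diet also missed the threshold with every gene of at least 1 count and with only the 8 libraries compared, Cers4 with library size only as well, and Acer1 after papain on the AhR-poor diet with every gene of at least 1 count. Leaving out 1 library gave 1 to 5 members higher between the diets with vehicle, of which 0 to 2 differentially expressed (0 without T100, T109 or T110), and 2 to 6 members that fell after papain on the AhR-poor diet (2 without T101, T102, T103 or T104). Depth limits Degs2, Lipk and Lipn, which had few counts per library.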
